A study of Mus musculus with 6 samples.

Results

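Foxb1, Sim1, Sim2, Nkx2-1, Barhl2, Tcf7l2 and Dbx1 are transcription factors of the developing thalamus, subthalamic region and hypothalamus, the diencephalic territories that lie in front of the midbrain. These 7 genes were chosen by name, as regulators of these territories, from the 26852 genes measured in E14.5 mouse midbrains that lack or keep the LIM homeodomain factor Lmx1b in dopaminergic neurons. All embryos were C57Bl/6. The Lmx1b cKO libraries came from embryos that were Lmx1b fl/fl;Pitx3-Cre, and the control libraries from embryos that were Lmx1b wt/wt;Pitx3-Cre. Both groups therefore carried 1 Pitx3-Cre allele, and they differed in whether Lmx1b was flanked by loxP sites. There were 3 libraries per group, each made from 2 pooled embryos out of 4 litters. Cre was driven by the Pitx3 locus, which is active in mesodiencephalic dopaminergic (mdDA) neurons, so that the deletion was limited to these neurons, while the RNA came from the whole dissected midbrain. Embryos and litters were not identified per library, and p-values measure the spread between these pools only.

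The forebrain part of the embryonic neural tube next to the midbrain is divided into pretectum, thalamus and prethalamus, with the hypothalamus below and in front of them. Each territory is marked by its own combination of transcription factors, and mdDA neurons form across the border of midbrain and diencephalon. Foxb1 is a forkhead factor of the mammillary region of the hypothalamus. Sim1 and Sim2 are bHLH-PAS factors of hypothalamic neuroendocrine and mammillary neurons, and both act as dimers with ARNT or ARNT2. Nkx2-1 is a homeodomain factor that specifies the ventral hypothalamus. Barhl2 is a homeodomain factor of the diencephalon, Tcf7l2 an HMG-box effector of Wnt signalling in the thalamus, and Dbx1 a homeodomain factor of progenitor cells.

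On GRCm38, Foxb1 lies at chr9:69757710-69760940 on the minus strand, Sim1 at chr10:50894754-50989152 on the plus strand and Sim2 at chr16:94084931-94127032 on the plus strand. Nkx2-1 lies at chr12:56531958-56536908 and Dbx1 at chr7:49631499-49636849, both on the minus strand. Barhl2 lies at chr5:106452523-106458166 on the minus strand and Tcf7l2 at chr19:55741820-55933654 on the plus strand. The exons of Foxb1 share 418 bases with B230323A14Rik, an antisense gene on the opposite strand, and how the counting treated strand is not given in the sources used here, so reads of these genes may not be told apart.

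The windows around the start sites of 5 of the 7 genes were found in RefSeq (GRCm38.p6), each with 250 bases before and 50 after the start. For Sim1, Nkx2-1 and Dbx1 the part of the window up to the first annotated exon base is shown, since these genes shared a low level in 1 control library. For Nkx2-1 and Dbx1 this part lies ahead of the gene, whereas for Sim1 it lies inside the annotated gene, in an intron of a transcript that starts further upstream. Capitals mark TAAT or its reverse complement ATTA, the core that many homeodomain factors, LIM homeodomain factors such as Lmx1b included, can bind.
Sim1, chr10:50895401-50895472, plus strand: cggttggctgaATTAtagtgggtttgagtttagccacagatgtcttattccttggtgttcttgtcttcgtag
Nkx2-1, chr12:56536909-56537158, minus strand: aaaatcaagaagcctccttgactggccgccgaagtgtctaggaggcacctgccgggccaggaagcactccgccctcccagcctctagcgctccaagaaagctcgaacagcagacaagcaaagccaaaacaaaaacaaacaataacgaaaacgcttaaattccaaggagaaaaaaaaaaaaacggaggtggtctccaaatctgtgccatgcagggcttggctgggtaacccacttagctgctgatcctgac
Dbx1, chr7:49636850-49637085, minus strand: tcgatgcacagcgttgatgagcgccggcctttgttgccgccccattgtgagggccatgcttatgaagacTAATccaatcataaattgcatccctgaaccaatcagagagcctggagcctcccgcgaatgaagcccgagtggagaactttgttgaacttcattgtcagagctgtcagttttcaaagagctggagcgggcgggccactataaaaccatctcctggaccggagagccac

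Over the whole windows of 300 bases, TAAT was found on either strand 3 times for Sim1, 1 time for Dbx1 and 0 times for Nkx2-1 and Barhl2. The windows at the 2 start sites of Tcf7l2 held it 2 and 3 times. Of 32851 mouse promoter windows, 58% held TAAT, so that its presence did not set these genes apart. The longer TAATTA, which contains a TAAT and an ATTA that overlap, was in 5.29% of promoter windows and in 0 of those of these genes.

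The values are normalized counts, for which the reads of a gene were scaled by the size factor of the library. The libraries are called cKO replicates a, b and c and control replicates a, b and c, as their whole-number counts were recovered from the deposited group means and do not carry a sample number. Reads on recovered genes numbered between 24858727 and 30124736 per library, and the rarest of the 7 genes, Sim2, had 68 to 186 reads. Lmx1b itself had a normalized count of 1371 ± 102 in cKO pools and of 1398 ± 66.6 in control pools (SD, n = 3), so that its total in whole midbrain did not separate the genotypes and does not check the labels. Pitx3, the locus that drives Cre, was at 111, 162 and 150 in the cKO replicates and at 177, 180 and 198 in the control replicates (log2 fold change -0.41, SE 0.18, limma unadjusted p = 0.0407). En1 and En2, engrailed factors of the midbrain and of mdDA neurons, were lower in all cKO libraries (log2 fold changes -0.40 and -0.46). Of the 9 midbrain markers, 3 (En1, En2 and Pitx3) were lower at an unadjusted p under 0.05 in limma, against 1.61% of all genes. Th, Pax7 and Tal2 were below 0 but did not pass. Otx2, Gata2 and Gata3 had log2 fold changes above 0, of 0.066, 0.036 and 0.0028. Without control replicate b, control replicate a or cKO replicate a, 2 of the 9 were lower at this threshold. In these fits 3.48%, 3.82% and 2.83% of all genes passed in either direction. Hindbrain Hox genes were at most at a normalized count of 5.31 in any library. The 8 bone and mesenchyme markers summed to 14081 in cKO replicate c against 735 to 2343 in the other 5 libraries. Of the 7 blood markers, 2 were higher in the cKO at an unadjusted p under 0.05 in limma (the globin genes Hba-a1 and Hbb-bs), against 1.16% of all genes, with a median log2 fold change of 0.30. This count was 0 without control replicate a, 1 without control replicate b or cKO replicate c and 3 without cKO replicate a or control replicate c. The shares of all genes in these fits, in either direction, were 3.82%, 3.48%, 3.44%, 2.83% and 1.98%. The blood markers summed to between 13419 and 17409 in cKO libraries and to between 12011 and 16502 in controls. Their part in the results was not tested.

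Control replicate b stood apart in the hypothalamic genes. Of the 19 hypothalamic and mammillary regulators whose mean normalized count reached 10, 9 (47.4%) were at less than 0.5 times the mean of the other control libraries in this library, against 2.44% of all genes tested. It was the lowest of the 6 libraries for 11 of these 19 genes and for 4 of the 7 genes described here, against 16.5% of all genes. To a lesser degree cKO replicate a was low too, with 4 of the 19 hypothalamic regulators (21.1%) at less than 0.5 times the mean of the other cKO libraries, against 2.64% of all genes. The results for the 7 genes and for the lists of each territory are therefore also given without control replicate b. A lower count in these pools can come from fewer cells of a type or from less RNA per cell, which cannot be told apart in bulk RNA.

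Foxb1 was higher in all 3 cKO libraries than in any control library. Its normalized count was 1027, 1139 and 1041 in the 3 cKO libraries, a to c, compared with 954, 660 and 901 in the 3 control libraries. The groups did not overlap, but the lowest cKO library was only 1.08 times the highest control library, and control replicate b was the low point of the gene. The log2 fold change was 0.36 (SE 0.12, limma unadjusted p = 0.0110, adjusted p = 1.00), and the exact permutation test gave a two-sided p of 0.1, the smallest that 3 against 3 libraries allow. Without control replicate b the log2 fold change was 0.20 with an unadjusted p of 0.0471 in limma. Against the mean of control replicates a and c, the cKO mean was 1.15 times as high. B230323A14Rik, on the opposite strand, followed a like course, with 368, 404 and 450 across the cKO libraries, against 376, 250 and 387 across the controls, where the groups overlapped (log2 fold change 0.29, limma unadjusted p = 0.102).

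Sim1 showed the same order of the groups. The normalized count of Sim1 was 964, 1051 and 1114 across the cKO libraries, against 899, 547 and 903 across the controls. As for Foxb1, the groups did not overlap, the closest cKO and control libraries differed by 1.07 times, and control replicate b was at 0.607 times the mean of the other controls. The log2 fold change was 0.45 (SE 0.16, limma unadjusted p = 0.0153, adjusted p = 1.00, exact permutation p = 0.1), and it was 0.20 without control replicate b (limma unadjusted p = 0.0492). The cKO mean of Sim1 was 1.16 times the mean of control replicates a and c.

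Sim2, the closest relative of Sim1, did not follow it. The normalized count of Sim2 was 63.7, 116 and 107 across the cKO libraries, against 165, 77.8 and 139 across the controls. The groups overlapped, and cKO replicate a and control replicate b were the low libraries of their groups. Sim2 had a log2 fold change of -0.41 (SE 0.32, limma unadjusted p = 0.216, exact permutation p = 0.4). Without control replicate b it was -0.74 with an unadjusted p of 0.0174 in limma, and without cKO replicate a it was -0.12.

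Nkx2-1 varied most among the control libraries. Its normalized count was 870, 1249 and 1145 across the cKO libraries, against 970, 360 and 1134 across the controls. Control replicate b held 0.342 times the mean of the other controls, and the remaining 5 libraries of the 2 groups overlapped. The log2 fold change of 0.55 (SE 0.31, limma unadjusted p = 0.103, exact permutation p = 0.4) was 0.035 without control replicate b, whereas leaving out control replicate a gave 0.78 and leaving out control replicate c gave 0.83, both with an unadjusted p under 0.05. Against control replicates a and c, the cKO mean of Nkx2-1 was 1.03 times as high. Nkx2-4, the closely related NK2 factor, was at 283, 349 and 317 across the cKO libraries, against 252, 115 and 335 across the controls, with the same low library.

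Dbx1 had equal group means and the widest spread within a group after Nkx2-1. Its normalized count was 268, 520 and 481 across the cKO libraries, against 616, 219 and 435 across the controls. The low libraries were cKO replicate a and control replicate b, as for Sim2, and the ratio of the highest to the lowest library was 1.94 among cKO libraries and 2.81 among controls. Dbx1 had a log2 fold change of 0.03 (SE 0.33, limma unadjusted p = 0.932, exact permutation p = 1). It turned to -0.39 without control replicate b, to -0.15 without cKO replicate b and to -0.094 without cKO replicate c, so that no direction held.

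The control libraries of Barhl2 differed least among the 7 genes, by 1.11 times from the lowest to the highest, and its cKO libraries by 1.18 times. The normalized count of Barhl2 was 818, 965 and 820 across the cKO libraries, against 794, 879 and 812 across the controls. The groups overlapped, and control replicate b was not low but at 1.09 times the mean of the other controls. Barhl2 had a log2 fold change of 0.06 (SE 0.090, limma unadjusted p = 0.50, exact permutation p = 0.5), and it was 0.11 without control replicate b and -0.014 without cKO replicate b.

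Tcf7l2 was the most abundant of the 7 genes. The normalized count of Tcf7l2 was 16758, 15747 and 14045 across the cKO libraries, against 12105, 16703 and 14218 across the controls. The groups overlapped, and control replicate b, which was low for Foxb1, Sim1, Nkx2-1 and Dbx1, was the highest control library for Tcf7l2. Its log2 fold change was 0.13 (SE 0.097, limma unadjusted p = 0.218, exact permutation p = 0.6), and it was 0.25 when control replicate b was left out (limma unadjusted p = 0.0106) but 0.0056 when control replicate a was.

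**Figure D1:**
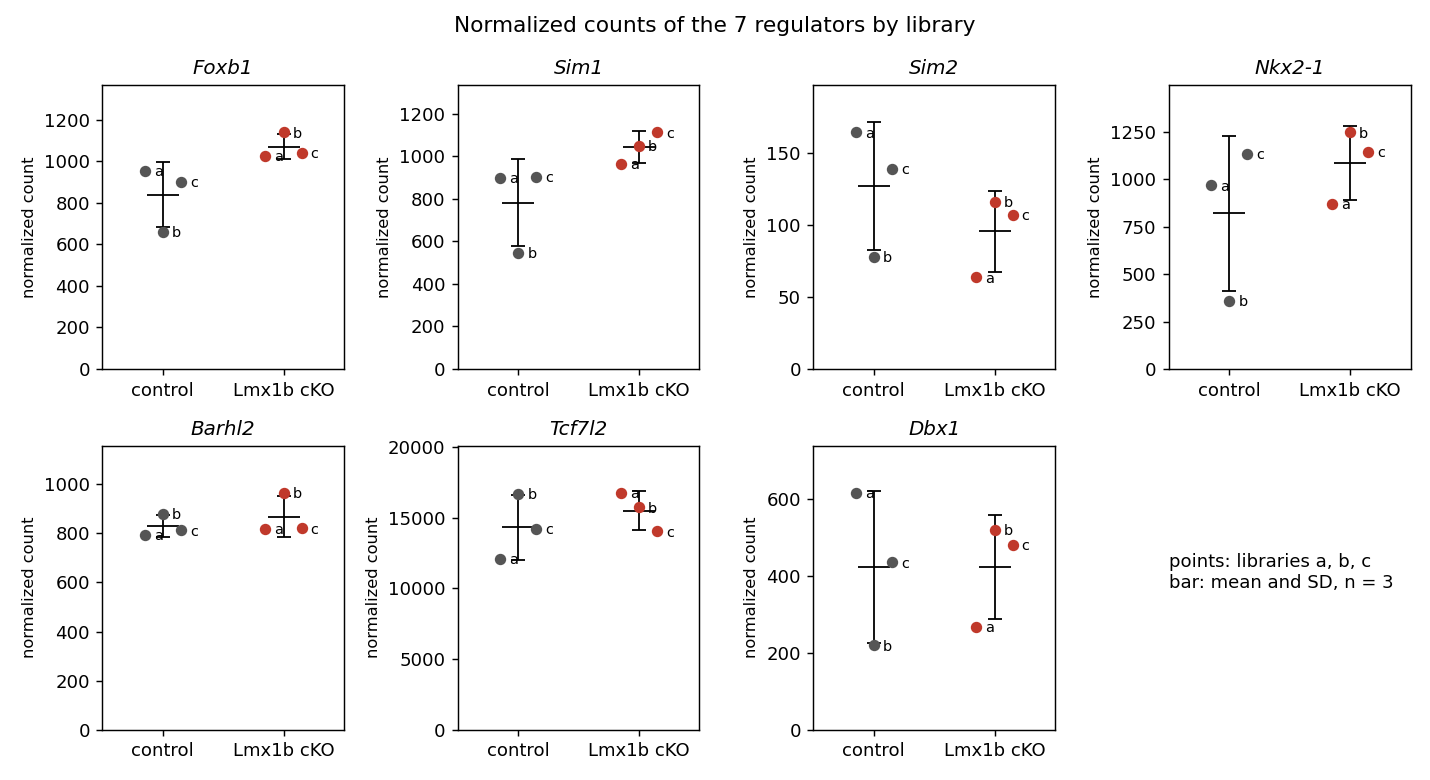
Normalized count (y axis, from 0) of each of the 7 regulators in control and Lmx1b cKO libraries; points are libraries a, b and c, and bars give the mean and SD (n = 3). The groups are apart for Foxb1 and Sim1 and overlap for the other 5 genes, and control replicate b is the lowest control library for Foxb1, Sim1, Sim2, Nkx2-1 and Dbx1.

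All 7 genes passed the minimum mean normalized count of 10, and each had 68 reads or more in every library. At an unadjusted p under 0.05 in limma, 2 of the 7 genes were higher in the cKO and 0 were lower. Over all 17035 genes tested, 473 (2.78%) passed this threshold, 198 (1.16%) of them higher and 275 (1.61%) lower. The groups did not overlap, with the cKO higher, for 2 of the 7 genes, against 661 of all genes (3.88%). The opposite order was found for 0 of the 7 genes and for 633 of all genes (3.72%). With Benjamini-Hochberg adjustment over all genes, limma with voom weights and limma-trend both called 0 genes (0%). The median log2 fold change of the 7 genes was 0.13, beside 0.00088 over all genes tested, and 6 of the 7 values were above 0. With 1 library left out this median ran from 0.11 without control replicate b to 0.35 without cKO replicate a and 0.40 without control replicate a. Without control replicate b, 4 of the 7 genes had an unadjusted p under 0.05, against 3.48% of all genes in that fit, of which Foxb1, Sim1 and Tcf7l2 were higher and Sim2 was lower, so that this single library decided the call for Sim2 and Tcf7l2.

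**Figure D2:**
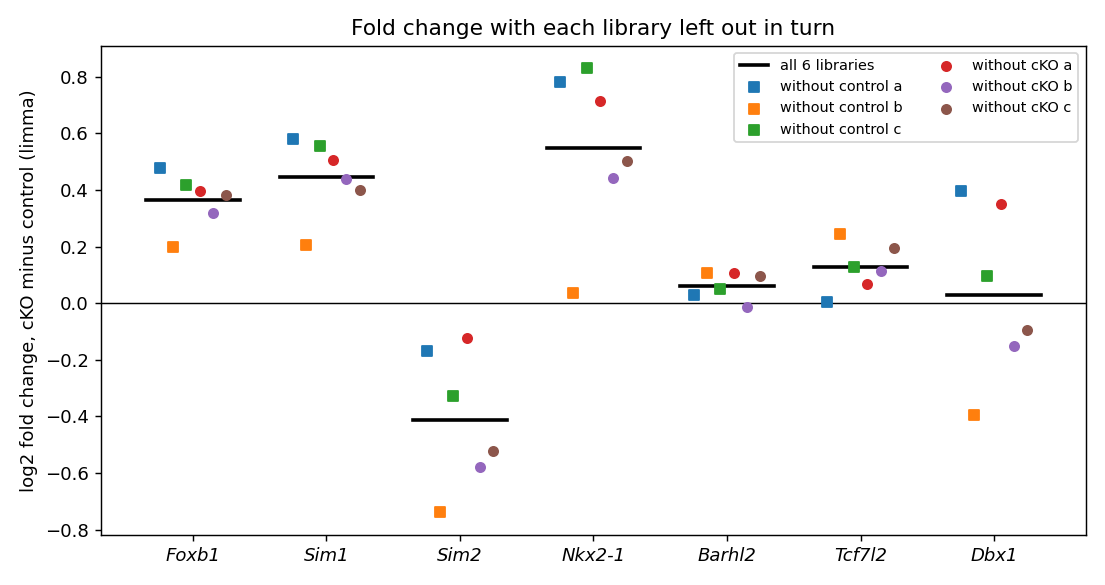
Log2 fold change (cKO minus control, limma) of each of the 7 regulators over all 6 libraries (black bars) and with each library left out in turn (squares, controls; circles, cKO). Foxb1 and Sim1 stay above 0 and Sim2 below 0 in all 6 fits, while Nkx2-1 runs from 0.035 to 0.83 and Dbx1 crosses 0.

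Levels of different genes were compared per kilobase of exon. In the cKO, Tcf7l2 led with a mean normalized count per kilobase of 1768 ± 156, followed by Nkx2-1 at 383 ± 68.8, Barhl2 at 375 ± 36.3, Foxb1 at 358 ± 20.5, Dbx1 at 202 ± 64.8, Sim1 at 121 ± 8.72 and Sim2 at 22.7 ± 6.65 (SD, n = 3). The ranges of Nkx2-1, Barhl2 and Foxb1 overlapped, as did those of Dbx1 and Sim1, and the order within these sets is not resolved. In the control, the order was Tcf7l2 at 1634 ± 262, Barhl2 at 358 ± 19.4, Nkx2-1 at 289 ± 143, Foxb1 at 281 ± 52.5, Dbx1 at 202 ± 95.0, Sim1 at 90.8 ± 23.7 and Sim2 at 30.1 ± 10.6 (SD, n = 3). Here each neighbouring pair from Barhl2 to Dbx1 overlapped, whereas Tcf7l2 stood above and Sim2 below. The highest control library of Sim1 (104.736) was barely under the lowest of Dbx1 (104.745), so the order of Dbx1 and Sim1 is not resolved here either. Transcripts of the dimer partner Arnt2 were at 2374 per kilobase in the cKO and 2366 in the control, above those of Sim1 and Sim2 in both groups.

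**Figure D3:**
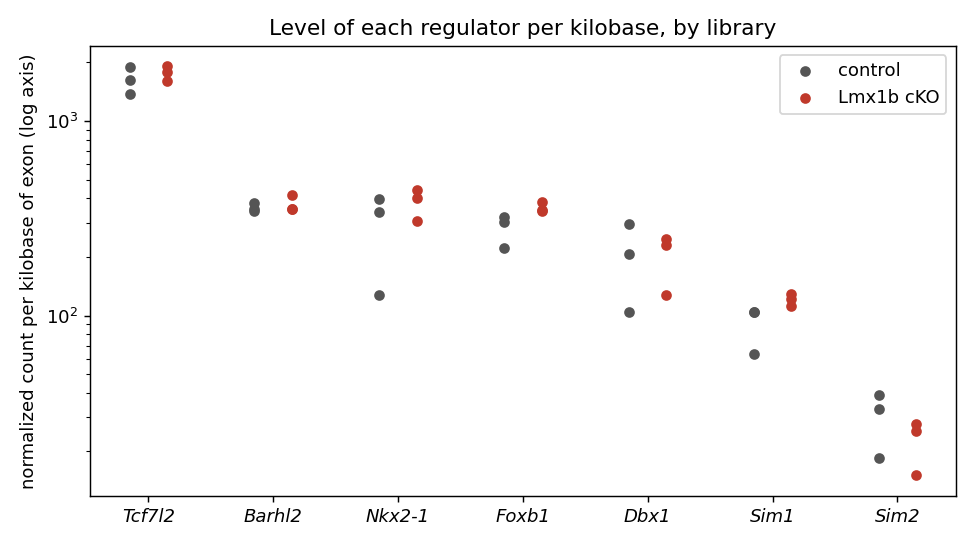
Normalized count per kilobase of exon (log axis) of the 7 regulators, with a point per library, grey for control and red for Lmx1b cKO. Tcf7l2 lies above the other genes in all 6 libraries, Sim2 lies below them, and the groups of points of Barhl2, Nkx2-1 and Foxb1 overlap.

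The other regulators of these territories were described by lists of known factors. Of 51 diencephalic regulators, the 7 genes included, 50 were tested, 8 were higher in the cKO at an unadjusted p under 0.05 in limma and 0 were lower, with a median log2 fold change of 0.11. Over all genes the shares were 1.16% higher and 1.61% lower, and these shares apply to the counts of each territory over all 6 libraries given next. Without the 7 genes, 6 of 43 tested regulators were higher, at a median of 0.10. Dlx6, Dlx5, Foxb1, Dlx1, Sim1 and Fezf2 were among the 8. The number of higher regulators went from 4 without cKO replicate b to 13 without cKO replicate c or control replicate b, where 1 and 3 regulators were also lower. Of all genes, 2.95%, 3.44% and 3.48% passed in either direction without cKO replicate b, cKO replicate c and control replicate b.

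The prethalamic list held the most such genes. All 9 prethalamic regulators had a log2 fold change above 0 (median 0.36), and 4 of 9 had an unadjusted p under 0.05. Dlx1, a distal-less homeobox factor of GABAergic neurons and the most abundant of this list per kilobase, was at 1481, 2078 and 1651 across the cKO libraries, against 1450, 1393 and 1141 across the controls (log2 fold change 0.37, limma unadjusted p = 0.0113). Dlx6, its relative, was at 334, 431 and 363 across the cKO libraries, against 207, 293 and 245 across the controls (log2 fold change 0.60, limma unadjusted p = 0.00233). In both genes the groups did not overlap, although in Dlx1 the lowest cKO and the highest control library were close, and both share exon bases with genes on the opposite strand. For Dlx5, a further distal-less factor, the log2 fold change was 0.70 (limma unadjusted p = 0.0109), and the groups overlapped, with control replicate b among the cKO libraries. All 9 prethalamic genes were highest in cKO replicate b, against 16.4% of all genes, and without this library 2 of 9 had an unadjusted p under 0.05, at a median log2 fold change of 0.12, against 2.95% of all genes in either direction. Without control replicate c, the count was 1 of 9, against 1.98%, and without control replicate a it was 2 of 9, against 3.82%. It was 6 of 9 without cKO replicate a or cKO replicate c and 7 of 9 without control replicate b, against 2.83%, 3.44% and 3.48%. Without control replicate b the median was 0.47, and the log2 fold changes of Dlx1, Dlx5 and Dlx6 were 0.40, 1.04 and 0.73.

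The 9 thalamic regulators, led per kilobase by Tcf7l2, also all had a log2 fold change above 0 (median 0.16), and 0 of 9 had an unadjusted p under 0.05. Without cKO replicate c or without control replicate b, 4 of 9 were higher at this threshold, and the median was 0.24 and 0.25. In these fits 3.44% and 3.48% of all genes passed in either direction. Without cKO replicate a, cKO replicate b, control replicate a or control replicate c the count was 0 of 9. The medians were then 0.068, 0.11, 0.16 and 0.077, and 2.83%, 2.95%, 3.82% and 1.98% of all genes passed. Gbx2, a homeodomain factor of thalamic neurons, was at 613, 815 and 435 across the cKO libraries, against 326, 622 and 375 across the controls (log2 fold change 0.51, limma unadjusted p = 0.0583). Its log2 fold change was 0.79 without control replicate b and 0.73 without cKO replicate c, with unadjusted p-values of 0.00575 and 0.00730 in limma, and its p was 0.0456 with no minimum mean. In all other alternatives Gbx2 did not reach an unadjusted p under 0.05. In these genes control replicate c was the low library, the lowest of all 6 for 6 of 9 thalamic and 6 of 9 prethalamic genes, against 14.4% of all genes.

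Of 19 tested hypothalamic and mammillary regulators, 3 were higher at an unadjusted p under 0.05 and 0 were lower, with a median log2 fold change of 0.05. Besides Foxb1 and Sim1 this was Fezf2, a zinc finger factor of the forebrain, which was at 130, 211 and 139 across the cKO libraries, against 145, 26.9 and 103 across the controls. The groups overlapped, and the log2 fold change of 1.06 (limma unadjusted p = 0.0379) became 0.32 without control replicate b. In control replicate b, several further regulators were near 0. Rax, a homeodomain factor of hypothalamic progenitors, was at 0 there and at 55.7 and 32.4 in control replicates a and c. Fezf1 was at 6.72 against 125 and 68.0, and Hmx3 was at 11.5 against 69.0 and 118. Otp, Hmx2 and Bsx, homeodomain factors of hypothalamic neurons, were at 0.590, 0.395 and 0.291 times the mean of the other controls. Not all genes of the list were low, since Six3 was at 0.961 times and Arnt2 at 1.07 times that mean. Without control replicate b, 2 of 20 tested hypothalamic regulators were higher and 2 were lower (Sim2 and Hmx2), against 3.48% of all genes in either direction. The median log2 fold change of the list was then -0.14. Leaving out control replicate a gave 6 of 19 higher at a median of 0.22, and leaving out control replicate c gave 5 of 18 higher at a median of 0.27, where 3.82% and 1.98% of all genes passed in either direction. Without cKO replicate a the count was 3 of 19, against 2.83% of all genes in either direction, and the median was 0.40. The 11 markers of hypothalamic peptide neurons summed to 250 in control replicate b and to 385 and 471 in the other controls, with the vasopressin gene Avp at 0 and Pmch, the precursor of melanin-concentrating hormone, at 96.1 against 211 and 222. Not all of these markers were low there, since Gal was at 60.5 against 57.5 and 52.9 and Ghrh at 21.1 against 7.08 and 9.72. In the cKO libraries the same markers summed to between 399 and 472. The part of the dissected tissue in these differences was not tested.

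The 7 subthalamic regulators had a median log2 fold change of 0.03, and 1 of them was higher and 0 were lower at an unadjusted p under 0.05. Without control replicate b, 0 of 7 passed this threshold, against 3.48% of all genes in either direction, and the median was 0.0081. Barhl1, the relative of Barhl2 and the most abundant subthalamic regulator per kilobase, was at 1604, 1589 and 1639 across the cKO libraries, against 1662, 1785 and 1534 across the controls. The 6 habenular and pretectal regulators all had log2 fold changes below 0 (median -0.15), and 0 of 6 had an unadjusted p under 0.05. When control replicate b was left out, 1 of 6 was lower at this threshold (Pou4f1, log2 fold change -0.21), at a median of -0.19. Without cKO replicate c or control replicate a it was also 1 of 6 (Sox14, log2 fold changes -0.25 and -0.22). In these 3 fits 3.48%, 3.44% and 3.82% of all genes passed in either direction. Irx2, an Iroquois factor and the most abundant of them per kilobase, was at 2233, 2279 and 2197 across the cKO libraries, against 2326, 2383 and 2338 across the controls, without overlap and at a log2 fold change of only -0.071.

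**Figure D4:**
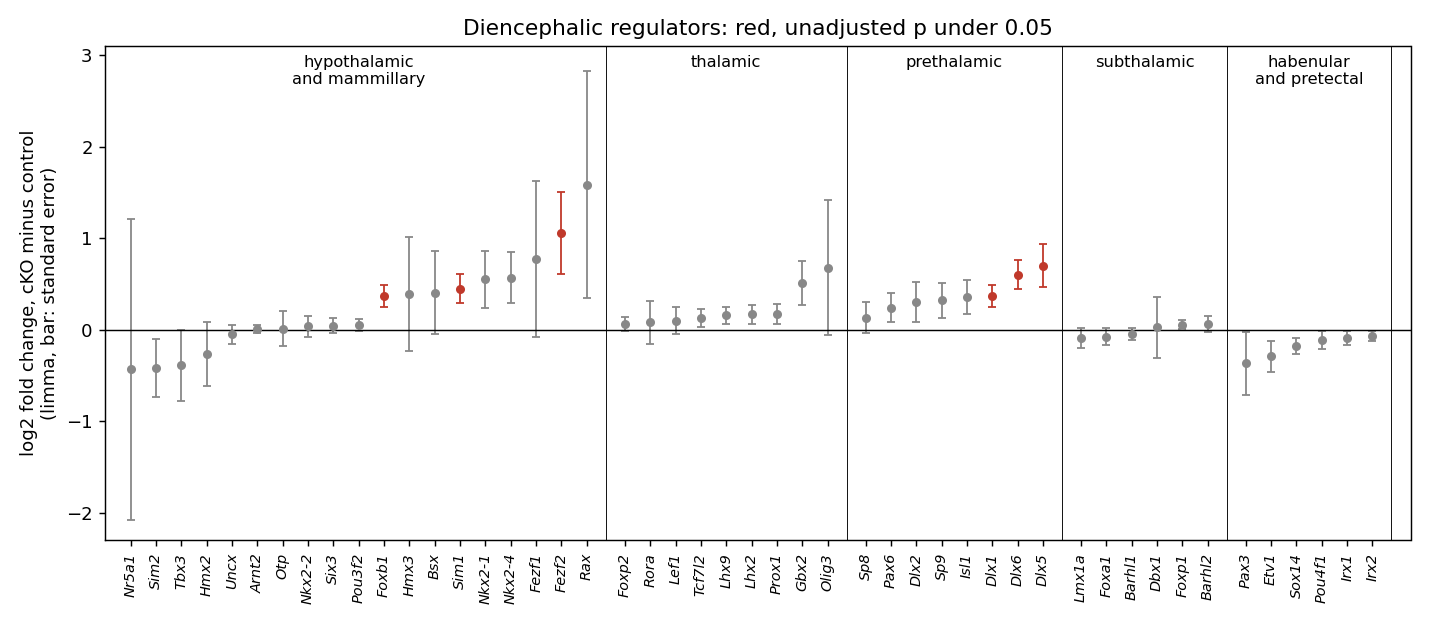
Log2 fold change (cKO minus control, limma; bars give the standard error) of 48 tested diencephalic regulators, grouped by territory and sorted within it. Red marks the 6 genes drawn with an unadjusted p under 0.05, of which 3 are prethalamic, and all thalamic and prethalamic values lie above 0.

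Paralogs and partners of the 7 genes showed no gene past the threshold. Of the 9 tested (Foxb2, Barhl1, Arnt, Arnt2, Tcf7, Tcf7l1, Lef1, Nkx2-4 and Dbx2), 0 had an unadjusted p under 0.05, against 2.78% of all genes, and the median log2 fold change was 0.0079. The count was also 0 of 9 without control replicate b, at a median of 0.034, and without control replicate a or c it was 1 of 9 (Nkx2-4), against 3.48%, 3.82% and 1.98% of all genes in these fits. Foxb2, the closest relative of Foxb1, was at 32.8, 29.6 and 35.7 across the cKO libraries, against 30.1, 8.65 and 32.4 across the controls, again with control replicate b the lowest. Arnt2 was at 18388, 18140 and 18226 across the cKO libraries, against 16878, 19068 and 18634 across the controls. Lef1, which shares the HMG box of Tcf7l2, was at 899, 929 and 681 across the cKO libraries, against 736, 963 and 651 across the controls. Both pairs of groups overlapped.

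The genes whose course over the 6 libraries was most like that of Foxb1 were searched among the 12802 genes whose mean normalized count reached 100. Likeness was the root-mean-square difference of log2(normalized count + 1), each gene centred on its own mean. The nearest genes were Il13ra1 (0.061), Zcchc10 (0.070), Gm9936 (0.087), Med31 (0.093) and D330023K18Rik (0.096). Il13ra1, which encodes an interleukin receptor chain, was at 186, 185 and 173 across the cKO libraries, against 171, 118 and 160 across the controls, the low value again in control replicate b. Sim1 came at position 11 with 0.11. Of the other regulators, Barhl2 was at position 5543 and Sim2 at position 12594. These positions describe 6 libraries that share 1 low control, and no test was made of them.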

How the data were processed

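Poly(A) RNA of 3 Lmx1b cKO and 3 control midbrain pools was sequenced paired-end, and the submitters' processing notes name TopHat 1.0.14, Bowtie2 2.1.0, HTSeq 0.6.1p1, DESeq 1.10.1 and GRCm38.p4. The table deposited by the authors gives signal (coverage): the mean over all libraries and per group of read counts divided by size factors. Its ratio, log2 ratio, p-value and adjusted p-value columns hold the authors' comparison and were not used. Strand use in counting is not given in the sources used here. The 3 lines naming no gene (31.8% of mean counts) were left out.

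Whole-number counts per library were recovered from the group means, as the only integers that give each printed mean, for sums up to 60000 reads. This gave 26710 of 26852 genes (99.5%, 83.7% of gene counts), and 8 and 14 of 1000 decoy values per group had an answer. Replicates a, b and c follow falling size factors. The limit of 60000 was chosen after the data were seen, so that Tcf7l2 was covered. The 17035 genes whose mean normalized count reached 10 entered limma 3.58.1 (R 4.3.3, voom weights, recovered size factors, no covariate), with Benjamini-Hochberg adjustment over all genes, and single genes with a two-sided exact permutation test. The script was tested on simulated data. Alternatives were other minimum means, limma-trend (pseudocount 1), other size factors, each library left out, and pseudocounts of 1 and 10 for ratios of means. Positions came from GENCODE M21 (26693 genes matched) and promoter windows from RefSeq.

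The genes named are the 7 regulators, listed diencephalic genes or relatives with an unadjusted p under 0.05, the most abundant gene of each list, overlapping genes, Lmx1b, Pitx3 and the 5 genes most like Foxb1. Other genes (among them Sim2's and Nkx2-1's relatives, Gbx2, Lef1, Foxb2, the genes low in control replicate b and marker genes) were named after their values were seen. A few listed genes are counted in their lists but not reported here. The genes and lists were chosen with earlier results of these data known.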

Additional observations from a re-analysis of the deposited data

How the results depend on the processing

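No paired analysis was possible because the recovered libraries could not be tied to the numbers of the samples. The log2 fold changes of Foxb1 and Sim1 kept their direction and an unadjusted p under 0.05 in all 11 alternatives, with ranges over the fits that each left out 1 library of 0.20 to 0.48 and 0.20 to 0.58. Over the same fits Barhl2 ran from -0.014 to 0.11 and Dbx1 from -0.39 to 0.40; the direction of Barhl2 turned without cKO replicate b (-0.014), and that of Dbx1 without cKO replicate b (-0.15), cKO replicate c (-0.094) and control replicate b (-0.39). The count of all genes with an unadjusted p under 0.05 was 975 with no minimum mean and 309 with a minimum mean of 100, where 26710 and 12803 genes were tested. With 1 library left out, the number of the 7 genes at this threshold was 2 to 4, that of diencephalic regulators 4 to 16, with 4 to 13 higher and 0 to 3 lower, while 1.98% to 3.82% of all genes passed. Genes with an adjusted p under 0.05 numbered 0 to 4; without control replicate a they were Uty, Ddx3y, Kdm5d and Gm11702. Dlx6 kept its call in all these fits, whereas Dlx5 lost it without control replicates a or c, Dlx1 without cKO replicate b or control replicate c, and Fezf2 without cKO or control replicate b. The cause was not tested. With 3 libraries of pooled embryos a group, the log2 fold changes of Sim2, Nkx2-1 and Dbx1 had standard errors of 0.31 to 0.33. Over all 6 libraries, -0.41 in Sim2 and 0.55 in Nkx2-1 did not reach an unadjusted p under 0.05 in limma. Differences of this size were thus not resolved in these genes.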

Other observations

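Likeness of course was also computed for the other regulators, whose neighbours were named after their values were seen. The genes nearest to Nkx2-1 among 12802 genes were Nkx2-4 (root-mean-square log2 difference 0.12) and Pmch (0.24), and Sim1 (0.31), Dbx1 (0.37) and Foxb1 (0.39) came at positions 5, 13 and 19. The nearest to Sim1 were B230323A14Rik (0.091), the antisense neighbour of Foxb1, and Foxb1 itself (0.11). Dbx1 and Sim2 were near each other, at a difference of 0.26 (position 16 in the ranking of Dbx1 and 37 in that of Sim2), and both rankings held Gins2, a DNA replication factor, among the first 5 genes. All of these courses hold the low value of control replicate b, and the points are 6 libraries only.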
